A study of Solanum lycopersicum with 2 samples.

Results

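Wide SlWUS peaks are the intervals of tomato DNA, listed as enriched by the transcription factor SlWUS, that measured 800 bp or more. They were chosen by the measured width of the interval alone, on the 12 numbered chromosomes, and there were 2447 of them among 65446 peaks there and 65452 in all. The share was 3.74% (exact Clopper-Pearson 95% interval 3.59 to 3.89%), and 0 of the 6 peaks on unplaced sequence were wide. The assay was DAP-seq, in which a tagged transcription factor made outside the plant is mixed with sheared genomic DNA and the bound fragments are sequenced. The series has 2 samples of tomato (Solanum lycopersicum), cultivar Ailsa Craig, grown in a greenhouse: 1 titled for WUSCHEL and 1 for its input, and the labels of both carry the words Halo, the name of a protein tag, and flower abscission zone. Only the peak list of the WUSCHEL sample was used here. With 1 library per group there is no spread between replicates, and no test was run. Intervals given with shares are exact Clopper-Pearson 95% intervals and cover counting error only.

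WUSCHEL is a homeodomain protein that keeps stem cells undifferentiated in the shoot and flower meristems of plants, and the secreted peptide CLV3 limits its expression. Homeodomain factors bind short, AT-rich core sequences, and several such sites can stand close together on the same DNA. In DAP-seq the DNA carries no nucleosomes, so a peak describes DNA that the protein can bind and not its occupancy in abscission zone cells. A peak caller marks each stretch where fragments exceed the local background, joins stretches that lie close together, and in this list names 1 summit per interval, the point of highest enrichment. A wide interval can therefore hold 1 broad stretch or several close ones under a single summit, and the list does not separate these cases. Positions are on the SL4.0 build. The genes, repeats and sequences under the intervals were not analysed here, since the sequence and gene models of the SL4.0 build were not used.

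Wide peaks made up a small part of the list and a larger part of the sequence it covered. They covered 2.51 Mb, which was 10.3% of all bases under peaks, whereas the 62999 ordinary peaks covered 21.8 Mb. Ordinary peaks are those from 200 bp to under 800 bp on the same chromosomes. All remaining peaks were of this class, since the shortest interval was 207 bp. The median wide peak was 948 bp long (quartiles 857 and 1098 bp) and the median ordinary peak 307 bp (quartiles 250 and 403 bp). Most wide peaks lay not far above the limit: 60.5% were under 1000 bp, 967 reached 1000 bp, 122 reached 1500 bp and 21 reached 2000 bp. At the limit itself, the 10 peaks of 800 bp had folds from 3.29 to 11.8 (median 7.08). The 14 peaks of 799 bp had folds from 2.72 to 22.1 (median 6.26). The summit lay within 25% of one end of the interval in 8 of these 10 and in 10 of these 14. So few peaks cannot settle whether the limit marks a break in the list.

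The widest peak was 2638 bp long, at chr7:13206045-13208682. Its summit lay near the middle, at 52.9% of the width, with 227 fragments (exact Poisson 95% interval 198 to 259) over a background of 7.42, a fold of 27.1. The second was 2527 bp, at chr9:20382292-20384818, with a fold of 16.1 and a summit 324 bp from one edge and 2202 bp from the other. The third, of 2416 bp at chr7:49852096-49854511, had a fold of 5.66 and a summit 138 bp from its end. These 3 peaks thus had near-central and far off-centre summits and folds from moderate to high.

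A pair of peaks measured 2389 bp each, chr3:14178353-14180741 and chr6:41997480-41999868, with folds of 17.9 and 7.42. The next were at chr12:52073955-52076295 (2341 bp, fold 14.8), chr1:84148006-84150335 (2330 bp, fold 4.52) and chr6:36530912-36533214 (2303 bp, fold 8.16). The last of the 10 widest were at chr1:26516129-26518399 (2271 bp, fold 7.68) and chr3:16133471-16135690 (2220 bp, fold 12.1). Among these 10 peaks the number of fragments at the summit ran from 40 to 227, all above the median of 29 in ordinary peaks. Only 1 of the 10, that from 84148006 on chromosome 1, lay in the outer 10% of its chromosome.

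Each chromosome held at least 1 interval of 1860 bp or more. On the chromosomes without a peak among the 10 widest, the widest measured 2186 bp on chromosome 2 (52362736 to 52364921), 2084 bp on chromosome 8 (39418708 to 39420791) and 1980 bp on chromosome 5 (62227723 to 62229702). Those on chromosomes 4, 10 and 11 measured 1909 bp (56521959 to 56523867), 1883 bp (63478273 to 63480155) and 1860 bp (45951727 to 45953586). The peak on chromosome 4 was by far the strongest of these 6. It reached a fold of 60.7 with 353 fragments, whereas the folds of the other 5 ran from 6.53 to 9.79.

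The summit of a wide peak lay in the middle of the interval less often than that of an ordinary peak. In 1327 of 2447 wide peaks, or 54.2% (52.2 to 56.2%), the summit lay in the outer 25% of the width at either end. In ordinary peaks this share was 13.2% (12.9 to 13.5%). The position is taken in percent of the width, by which the peaks were chosen. The part of width in this difference was not tested. The outer parts together are as long as the rest, so evenly spread summits would lie in them as often as not. The wide share was slightly above that even split, and the ordinary share far below it. The middle 20% of the width held the summit in 18.5% of wide (17.0 to 20.1%) and 52.6% of ordinary peaks (52.2 to 53.0%). Both ends were used alike: 665 wide peaks had the summit in the outer 25% at the low-coordinate end and 662 at the high-coordinate end. The share of off-centre summits ranged from 46.8% on chromosome 6 to 60.4% on chromosome 8, and it was higher in wide than in ordinary peaks on 12 of 12 chromosomes.

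**Figure D1:**
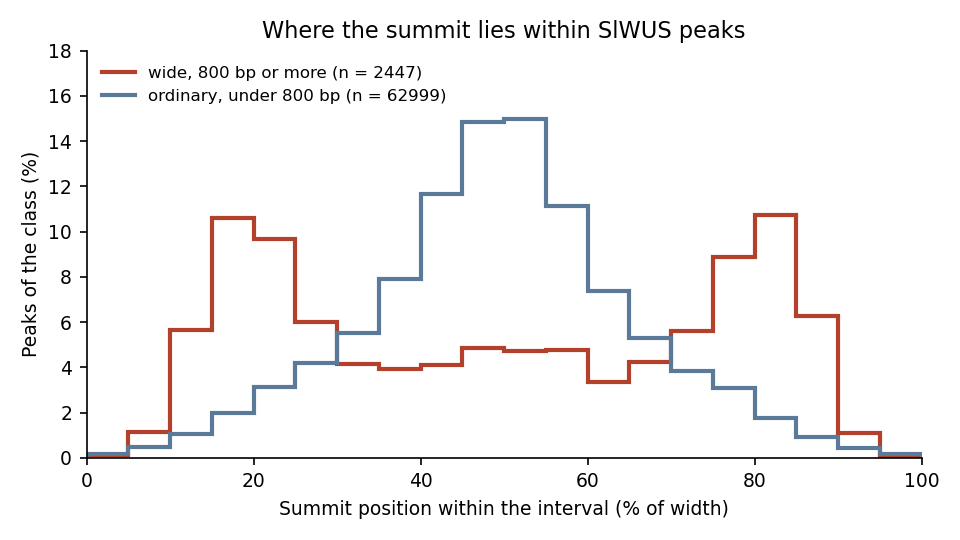
Position of the summit within the interval, in percent of the width (horizontal), against the percentage of peaks of each class in bins of 5% (vertical), for 2447 wide and 62999 ordinary peaks. The wide peaks have a hump on each side, with 10.6% of them in the bin from 15 to 20% and 10.7% in that from 80 to 85%, and the ordinary peaks a single hump in the middle.

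The distance from the summit to the nearer edge changed less with width than that to the farther edge. In wide peaks the nearer edge was a median of 225 bp away (quartiles 171 and 357 bp) and the farther edge 706 bp (quartiles 617.5 and 832 bp). In ordinary peaks these medians were 121 and 182 bp. Across width classes, the nearer edge moved from 169 bp in peaks of 400 to under 500 bp to 202 bp in peaks of 800 to under 900 bp. Over the same classes the farther edge moved from 273 to 636 bp. The farther edge is the longer side by definition, and the classes hold different peaks. These medians therefore do not show that length was added on one side. Above 1200 bp the nearer edge also moved away, to 342 bp and, from 1500 bp on, to 432 bp. Summits within 250 bp of an edge were found in 98.6% of ordinary peaks and in 65.7% of peaks from 800 to under 1000 bp. The share was 47.2% from 1000 to under 1500 bp and 30.3% from 1500 bp. A fixed 250 bp takes up a smaller part of a longer interval, and how far this sets the fall was not tested.

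The off-centre form began well below 800 bp. The share of summits in the outer 25% was 7.94% in peaks of 300 to under 400 bp, 31.7% at 500 to under 600 bp and 51.3% at 700 to under 800 bp. In wide peaks it then stayed between 48.8% and 55.8% in the 5 classes of width. Summits in the middle 20% were scarcest at 600 to under 700 bp, at 9.996%, and then rose to 14.9% at 800 to under 900 bp and 22.1% from 1500 bp on. The widest peaks thus had central summits more often than peaks just under the limit, by 22.1% (15.1 to 30.5%) against 11.9%.

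**Figure D2:**
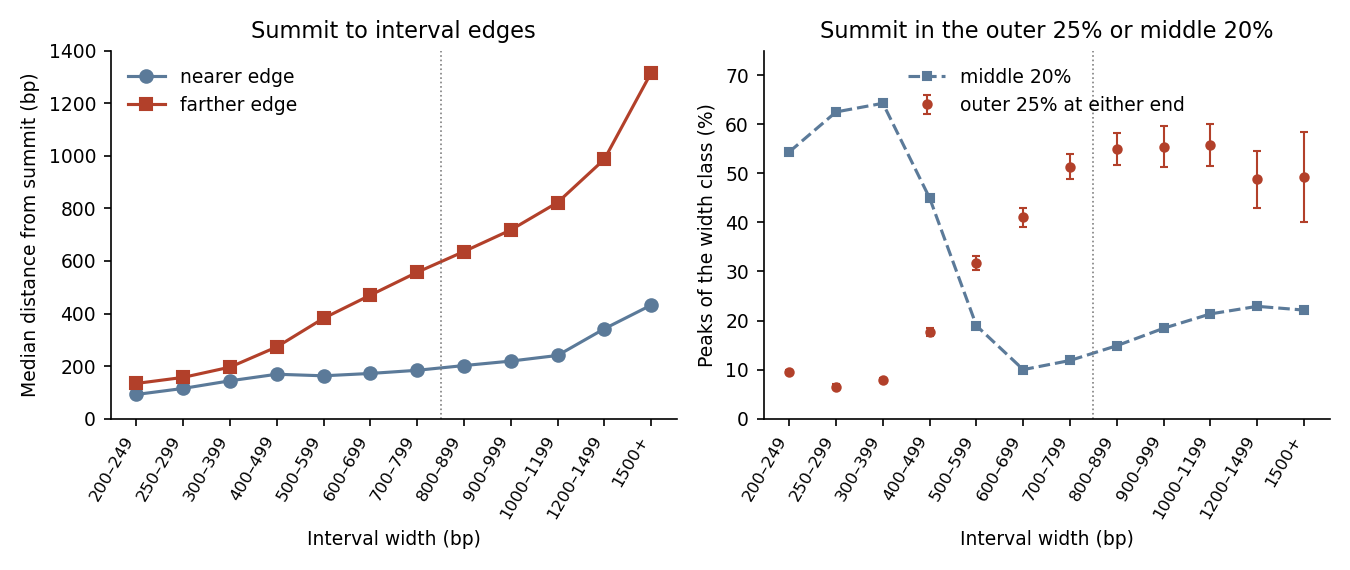
Summit and edges by interval width in bp (horizontal), with the limit of 800 bp as a dotted line. Left, median distance in bp from the summit to the nearer and the farther edge; right, percentage of peaks with the summit in the outer 25% at either end (bars, exact 95% intervals) and in the middle 20%. From the class of 400 bp to that of 800 bp the farther edge moves from 273 to 636 bp while the nearer edge moves from 169 to 202 bp.

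Off-centre summits were frequent in wide peaks from 16 to under 512 fragments, with shares of 43.2% to 59.3% by class. Peaks with few fragments may have a less certain highest point, which was not tested. Among ordinary peaks the off-centre share was 18.03% at 16 to under 32 fragments. It was 3.39% at 64 to under 128 and 0.537% at 128 to under 256. Among wide peaks with the same numbers of fragments, but not the same widths, the shares were 59.3%, 49.7% and 43.2%. The last value rests on 162 peaks and has an interval of 35.5 to 51.2%. This interval and that of the value before it, 45.6 to 53.7%, include an even split between outer and inner parts. The 5 most off-centre summits, in contrast, all lay in weakly covered peaks, with 15 to 25 fragments. The farthest was at chr4:51337094-51337911, where the summit stood 22 bp from the start of an 818 bp interval with 15 fragments (95% interval 8.40 to 24.7).

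Wide peaks were stronger than ordinary peaks at their summits, in the authors' fold enrichment, the ratio of fragments at the summit to the local background. Width and strength are measured on the same fragments, and how far one sets the other was not tested, so this is a description of the chosen peaks. The median fold was 7.04 in wide peaks (quartiles 4.87 and 10.8) and 4.29 in ordinary peaks (quartiles 3.35 and 6.004). The median number of fragments at the summit was 49 (quartiles 34 and 74.5) against 29 (quartiles 23 and 42). The median background was 6.11 in both classes. Median fold was higher in wide peaks on 12 of 12 chromosomes, from 6.46 on chromosome 5 to 7.72 on chromosome 2. A fold of at least 10 was reached by 702 wide peaks, or 28.7%, where 9.23% of all peaks reached it. A fold of at least 20 was reached by 159, or 6.498%, against 1.99% of all peaks, and one of at least 50 by 15, or 0.613%, against 0.252%.

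The share of wide peaks rose with fold up to the class of 20 to under 50-fold, and no wide peak reached 100-fold. Wide peaks were 0.507% of peaks under 3-fold, 1.95% from 3 to under 5-fold, 5.78% from 5 to under 10-fold and 11.5% from 10 to under 20-fold. The share was 12.7% (10.8 to 14.7%) from 20 to under 50-fold and 11.5% (6.60 to 18.3%) from 50 to under 100-fold. Of the 35 peaks of at least 100-fold, 0 were wide (0 to 10.003%), and the longest of them measured 758 bp. Their median width was 518 bp (quartiles 499.5 and 531.5 bp). By fragments the pattern was alike, with 13.6% (9.63 to 18.4%) wide at 256 to under 512 fragments and 2 of 84, or 2.38% (0.290 to 8.34%), from 512 fragments on. The intervals of these last shares do not meet, but only 2 and 35 wide peaks stand behind them. For fold the intervals of the top classes overlap. In the highest class of fold and of fragments alike, the interval includes the 3.74% of all peaks. Among the 100 peaks of highest fold 8 were wide (3.52 to 15.2%), and among the top 50 only 1 was (0.0506 to 10.6%).

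**Figure D3:**
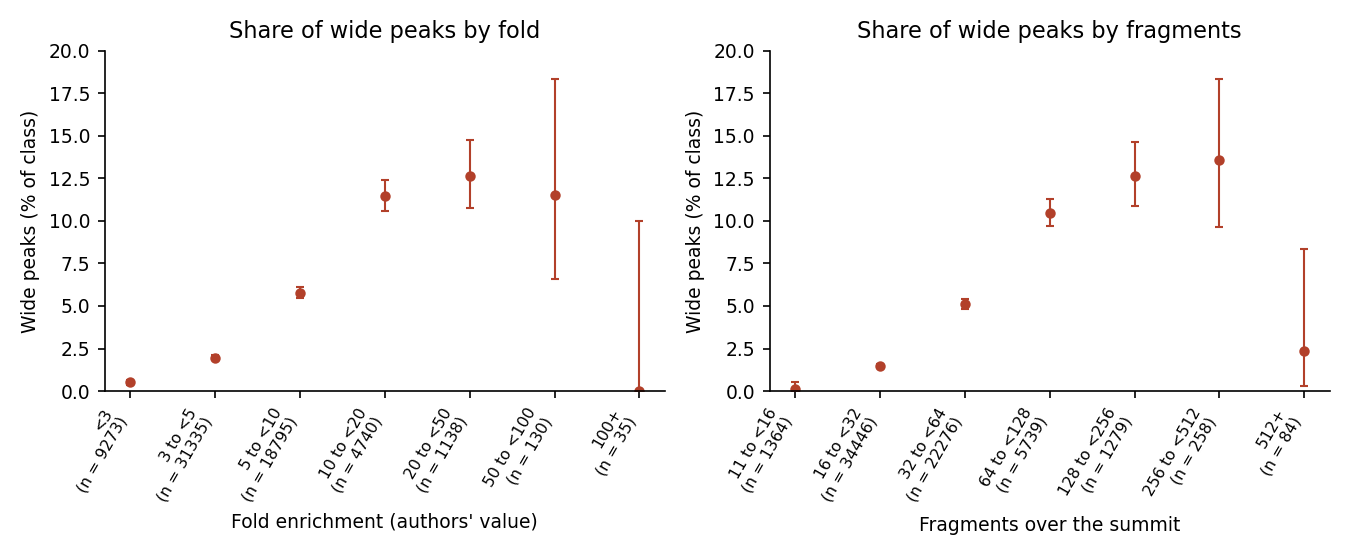
Percentage of peaks that were wide (vertical, with exact 95% intervals) in classes of the authors' fold enrichment (left) and of the number of fragments over the summit (right); the number of peaks in each class stands below it. The share rises from 0.507% under 3-fold to 12.7% from 20 to under 50-fold, and is 0 of 35 peaks from 100-fold on.

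The strongest wide peak had a fold of 88.1 and ranked at place 50 among all peaks. It lay at chr10:45804291-45805686, 1396 bp long, with 446 fragments (95% interval 406 to 489) over a background of 4.08, and its summit stood 202 bp from the end. The next were at chr11:35509729-35510760 (fold 83.5), chr8:55863178-55864429 (fold 83.3) and chr7:15675801-15676818 (fold 83.1). The peak on chromosome 7 had the most fragments of the 5 strongest, 729 (677 to 784), over a background of 7.79. The fifth, at chr6:11776390-11777338, had a fold of 75.7. The summits of these 5 stood between 202 and 308 bp from the nearer edge. The farther edge was between 706 and 1193 bp away. In the order given they lay at 85.5%, 75.8%, 75.4%, 26.2% and 74.4% of the width. Those at 26.2% and 74.4% fell just short of the outer 25%.

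At the other end of the range, the weakest wide peak had a fold of 1.98 and 20 fragments (95% interval 12.2 to 30.9) over a background of 9.60. It was at chr5:64544619-64545474. The next weakest were at chr9:37309130-37310065 (fold 2.25), chr3:49008743-49009964 (fold 2.26), chr12:3523095-3523898 (fold 2.26) and chr3:19934360-19935292 (fold 2.35). Their summits held 16 to 25 fragments, and 4 of the 5 had a background of 8.73 or more, above the median of 6.11. At these numbers the order of the 5 is within counting error. Only 47 of the 9273 peaks under 3-fold were wide.

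Wide peaks with central and with off-centre summits had similar median folds. The 452 with the summit in the middle 20% had a median fold of 6.65 (quartiles 4.78 and 9.83) and a median width of 982 bp. The 1327 with the summit in the outer 25% had a median fold of 6.70 (quartiles 4.77 and 10.2) and a median width of 946 bp. The 668 in between had a somewhat higher median fold, 8.03 (quartiles 5.23 and 12.6), with quartiles that overlap those of the other classes.

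Every chromosome carried wide peaks, from 165 on chromosome 11 to 293 on chromosome 1. As a share of a chromosome's peaks they were most frequent on chromosome 6, at 4.52% (3.93 to 5.17%), followed by chromosome 3 at 4.20% (3.71 to 4.73%). They were least frequent on chromosome 10, at 3.40% (2.92 to 3.93%), and chromosome 7, at 3.43% (2.97 to 3.95%). The intervals of chromosomes 6 and 10 just miss each other, and those of the other 10 chromosomes overlap with both. For their span, chromosome 6 had 4.30 wide peaks per Mb and chromosome 12 had 2.70.

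Wide peaks lay nearer to the chromosome ends than ordinary peaks. The distal zones, the outermost 10% of the span on either side, are mostly gene-rich euchromatin in tomato, and the central zone from 30 to 70% of the span is mostly repeat-rich heterochromatin around the centromere. Distal zones held 983 wide peaks, 40.2% of them (38.2 to 42.1%), and 30.8% of ordinary peaks (30.5 to 31.2%). Central zones held 520 wide peaks, 21.3% (19.6 to 22.9%), and 31.7% of ordinary peaks (31.4 to 32.1%). The density of wide peaks was 6.36 per Mb distally and 1.68 per Mb centrally, and that of ordinary peaks was 126 and 64.7 per Mb. Since all peaks were denser distally, the share of wide peaks among peaks is the fairer measure: it was 4.82% (4.53 to 5.12%) distally, 3.85% (3.61 to 4.09%) between the zones and 2.54% (2.32 to 2.76%) centrally.

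The distal share of wide peaks exceeded that of ordinary peaks on 12 of 12 chromosomes, by 2.83 percentage points on chromosome 2 to 18.8 points on chromosome 5. The mean over chromosomes was 40.7% ± 8.72 for wide and 30.8% ± 4.02 for ordinary peaks (SD, n = 12 chromosomes of 1 library). The central share of wide peaks was lower on 11 of 12 chromosomes. The exception was chromosome 2, where 39.8% of wide and 37.0% of ordinary peaks were central. The short arm of this chromosome carries the nucleolus organizer, and whether this bears on the exception was not tested. The zones were set by span alone, with no measure of chromatin on any chromosome.

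**Figure D4:**
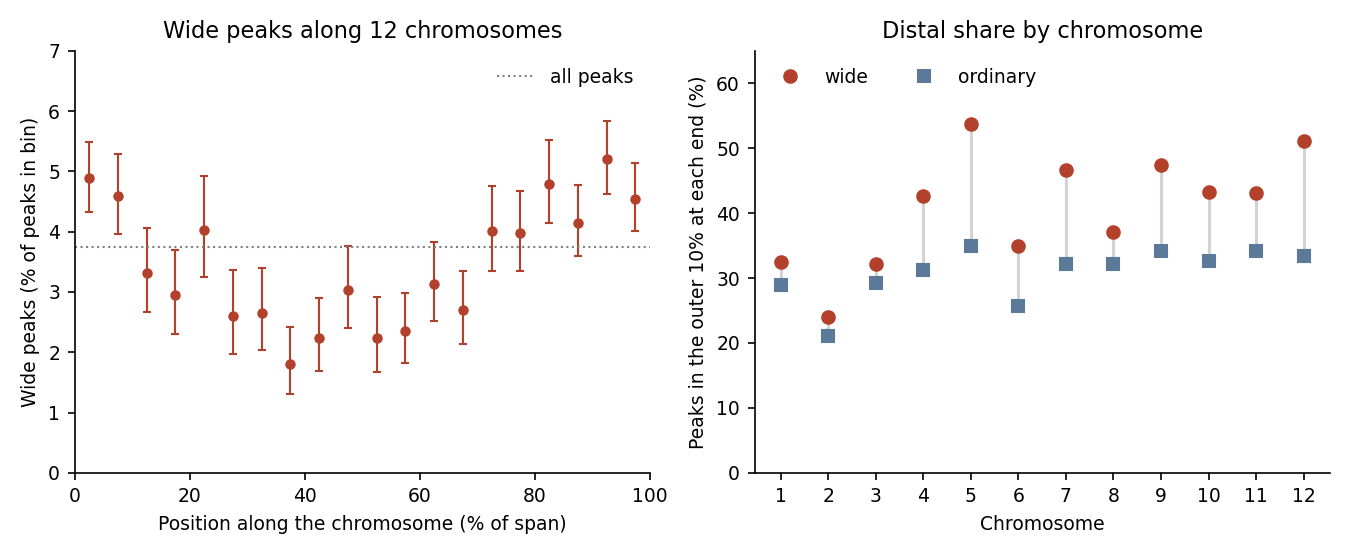
Left, percentage of peaks that were wide (vertical, with exact 95% intervals) in bins of 5% along the span of the 12 chromosomes together (horizontal), with the 3.74% of all peaks as a dotted line; right, percentage of wide and of ordinary peaks in the outer 10% at each end, by chromosome. The share of wide peaks is 1.80% in the bin from 35 to 40% and 5.20% in that from 90 to 95%, and the wide peaks exceed the ordinary ones distally on 12 of 12 chromosomes.

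With distance from the nearest chromosome end, the share of wide peaks was 4.71% in the first 5% of the span and 4.94% in the next 5%. It lay between 3.43% and 4.08% from 10 to 30% of the span and between 2.30% and 2.68% from 30 to 50%. The same shift was present at matched numbers of fragments. At 32 to under 64 fragments, 41.0% of wide (38.1 to 43.9%) and 32.4% of ordinary peaks (31.8 to 33.03%) were distal. At 128 to under 256 fragments the shares were 40.7% (33.1 to 48.7%) and 26.9% (24.4 to 29.7%). No step was seen at 800 bp: the distal share was 28.5% in peaks of 200 to under 250 bp, 32.1% at 400 to under 500 bp and 37.2% at 500 to under 600 bp, and then 38.7% at 800 to under 900 bp. Against ordinary peaks of at least 400 bp, of which 34.8% were distal, the difference was 5.37 points in place of 9.36.

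Stretches rich in peaks were also richer in wide peaks than their number of peaks alone gives. In full 1 Mb windows with at most 50 peaks, 2.31% of peaks were wide (1.91 to 2.78%). This share was 3.40% (3.09 to 3.74%) in windows with 76 to 100 peaks and 4.95% (4.67 to 5.24%) in windows with 126 to 187. The median window held 2 wide peaks (quartiles 1 and 5), and 137 of 766 windows held 0. The most, 14 each, were found at chr5:3000001-4000000, among 183 peaks, and on chromosome 6 from 1 to 1000000, among 150. Windows with 13 lay on chromosome 6 from 35000001, chromosome 8 from 1000001 and from 58000001, chromosome 9 from 64000001 and chromosome 12 from 1000001. These windows were chosen for their counts, which carry no test. Peaks were also denser in the distal zones, and the part of position in this relation was not tested.

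The next interval lay closer to a wide peak than to an ordinary one. The gap between facing edges was a median of 1537 bp for wide peaks (quartiles 620.5 and 3943 bp) and 2323 bp for ordinary peaks (quartiles 876 and 5950 bp). A gap of at most 2000 bp was found beside 57.9% of wide (55.9 to 59.8%) and 46.1% of ordinary peaks (45.7 to 46.4%), and the wide share was higher on 12 of 12 chromosomes. This closeness had no step at 800 bp either: the share was 55.3% in peaks of 600 to under 700 bp, 56.3% at 700 to under 800 bp and 55.3% at 800 to under 900 bp. Against ordinary peaks of at least 400 bp, at 52.0%, the difference was 5.88 percentage points. A gap over 20000 bp was found for 1.96% of wide and 3.76% of ordinary peaks. The shortest gap in the list was 208 bp, close to the shortest interval of 207 bp.

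Measured from summit to summit, the difference was smaller. Both distances depend on the width by which the peaks were chosen, since a longer interval shortens the gaps beside it and sets a larger least distance to other summits. The part of width in either measure was not tested. The nearest other summit was within 2000 bp for 44.5% of wide (42.5 to 46.5%) and 40.6% of ordinary peaks (40.2 to 41.0%), higher for wide peaks on 9 of 12 chromosomes. Within 1000 bp it was found for 11.2% of wide and 17.5% of ordinary peaks, the reverse order. Within 5000 bp the shares were 76.8% and 68.8%. Against ordinary peaks of at least 400 bp, 44.4% of which had a summit within 2000 bp, wide peaks did not stand apart, with a difference of 0.0735 percentage points.

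The difference in gaps was present in each zone and smallest at the chromosome ends. In distal zones, 61.2% of wide (58.1 to 64.3%) and 55.6% of ordinary peaks (54.9 to 56.3%) had a gap of at most 2000 bp. Between the zones the shares were 57.9% (54.7 to 61.1%) and 45.7% (45.1 to 46.4%). In central zones they were 51.3% (47.0 to 55.7%) and 37.2% (36.6 to 37.9%). Summit to summit, the order turned in the distal zones, where 47.0% of wide and 49.0% of ordinary peaks had a neighbour within 2000 bp. In central zones it held, at 38.7% against 32.7%.

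**Figure D5:**
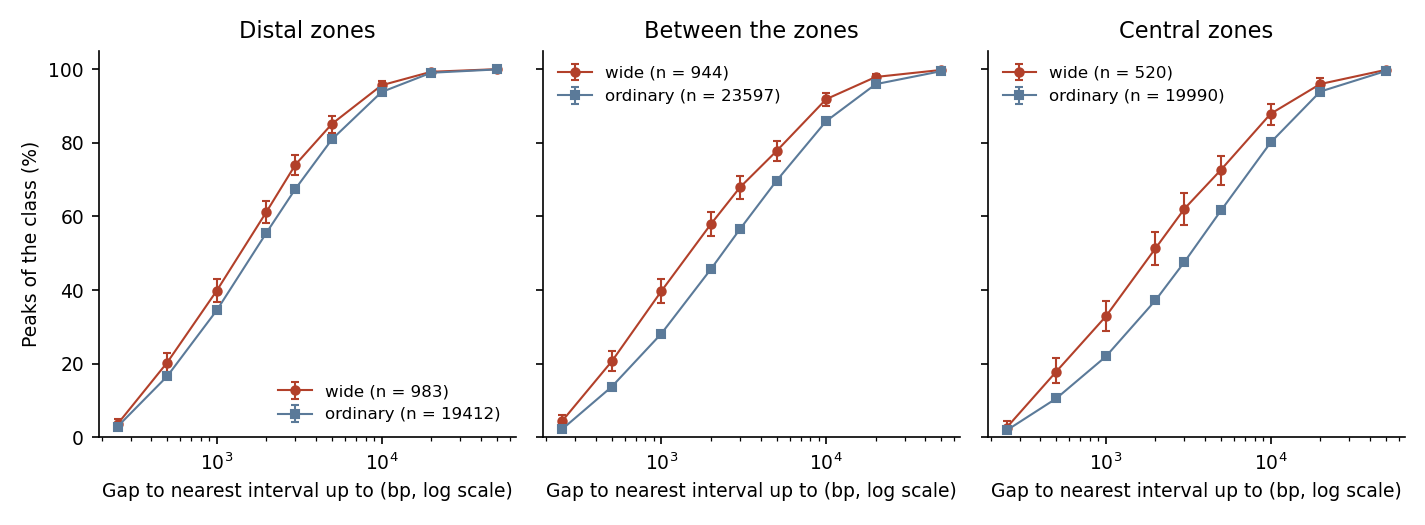
Percentage of peaks (vertical) whose nearest interval lies within a given gap in bp (horizontal, log scale), for wide and ordinary peaks in the distal zones, between the zones and in the central zones; bars are exact 95% intervals. At 2000 bp the wide peaks reach 61.2%, 57.9% and 51.3% and the ordinary peaks 55.6%, 45.7% and 37.2%.

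Wide peaks were somewhat more often next to another wide peak. Of 4893 intervals that adjoin a wide peak, 250 or 5.11% (4.51 to 5.76%) were wide, against 3.69% (3.58 to 3.79%) of those that adjoin an ordinary peak. At gaps of up to 2000 bp the shares were 6.58% (5.47 to 7.84%) and 4.76% (4.54 to 4.99%). Adjacent pairs enter such shares from both sides, so these intervals are too narrow. Wide peaks were also 4.82% of all peaks in distal zones and 4.95% in windows with 126 to 187 peaks. The part of position and peak density in this difference was not tested. Most wide peaks nonetheless stood alone: 2209 had an ordinary peak or a chromosome end on both sides, 102 runs held 2 wide peaks and 10 held 3. The 1 run of 4, singled out after its values were seen, lay at chr9:32382050-32435581, over 53.5 kb. Its widths ran from 889 to 1796 bp and its folds from 3.66 to 11.5.

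The nearest other wide summit was a median of 63380 bp away (quartiles 22642 and 156520 bp), and within 10000 bp for 342 wide peaks, or 14.0%. The 3 nearest pairs all lay on chromosome 5 in its distal zones. The closest had summits 543 bp apart, with one interval from 936553 to 937525 at a fold of 10.1 and the other from 937830 to 938770 at 3.56. The second, with summits 639 bp apart, joined 62099012 to 62100307 (fold 7.28) and 62100649 to 62101456 (fold 3.27). The third, 855 bp apart, joined 60545858 to 60546664 (fold 4.34) and 60547217 to 60548391 (fold 4.51). In these 3 pairs the summits stood at the facing ends of the intervals, as a choice by summit distance favours.

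The longer side of a wide peak faced its nearer neighbour about as often as not. Among 1327 wide peaks with the summit in the outer 25%, the longer side faced the nearer neighbour in 677, or 51.0% (48.3 to 53.7%). Where that neighbour was within 2000 bp, the share was 52.5% (48.9 to 56.1%). In ordinary peaks with such summits it was 50.2% (49.2 to 51.3%). In 58 pairs of adjacent wide peaks with a gap of at most 2000 bp, both summits lay off the midpoint towards each other in 16, both away from each other in 17 and on the same side in 25. With 58 pairs, the intervals of the first and second share overlap widely, at 27.6% (16.7 to 40.9%) and 29.3% (18.1 to 42.7%).

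The background under wide peaks was close to that under ordinary peaks. Its lowest value in the list, 4.08 fragments, was found at 5.35% of wide (4.50 to 6.32%) and 7.73% of ordinary peaks (7.52 to 7.94%). A background of at least 10 fragments was found at 1.31% (0.896 to 1.84%) and 1.42% (1.33 to 1.51%). The highest background under a wide peak was 18.3 and under an ordinary peak 26.6 fragments. The median background was lower in wide peaks on 5 chromosomes, higher on 2 and the same to within 0.001 on the other 5, with differences (wide minus ordinary) from -0.224 to 0.190 fragments.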

How the data were processed

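Peaks of 1 SlWUS library were analysed. The submitters' processing notes name Bowtie2 2.2.5, MACS2 2.1.2 and ChIPseeker, with settings, and any use of the input, not given in the sources used here. Sequence names place the peaks on SL4.0, and positions are counted from 1. The fold (a ratio), the −log10 p-value and q-value and the summit offset are the authors' deposited values. The deposited score, 10 times the −log10 q, was not used. Fragments at the summit and background were solved from the fold, taken as (fragments + 1)/(background + 1), and a Poisson upper tail. In 65452 of 65452 peaks a whole number of fragments met the −log10 p to within 0.001. Total depth is unknown, and fragments may not be independent molecules.

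Width is column 3 minus column 2 of the peak list. The span of a chromosome is the end of its last peak. The wide peaks, zones and comparisons were chosen with earlier results of these data known. Since width and strength share 1 readout, there is no test. Peaks were named by rule: the 10 widest, 5 strongest, 5 weakest, most off-centre, widest per chromosome, nearest pairs, and those at the width limit. All peaks tied at the limit, where the rule asked for 5 a side, are given as ranges. Alternatives changed the width limit, q limit, ordinary class, zones and distances. Recovery of fragments was tested on peaks simulated from the recovered values with the same formula. This checks the calculation only, not the formula. The tools were scipy 1.17.1, numpy 2.4.6 and pandas 2.3.3 under Python 3.11.15, and matplotlib 3.10.9 for figures.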

Additional observations from a re-analysis of the deposited data

How the results depend on the processing

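Of the 34 alternatives planned at the start, 0 turned a direction. They include those of the background ratio, which lay close to 1 and had no direction to turn. Others concern fold and fragments, which share a readout with the width used for choosing. The off-centre share is taken in percent of that width. Among 3 more, chosen after seeing the data, the neighbour difference turned to -6.26 points within 1000 bp between summits and to -1.99 points in the distal zones alone. The distal difference of 9.36 points fell to 5.37 against ordinary peaks of at least 400 bp. The off-centre difference of 41.04 points became 38.7 at a limit of 1000 bp, 45.8 at a −log10 q of at least 5, 26.1 against ordinary peaks of at least 400 bp, 46.7 at matched fragments and 43.6 with off-centre taken from 33.3% of the width at either end. The neighbour difference of 3.90 points became 0.0735 against peaks of at least 400 bp, 11.8 between facing edges and 8.07 within 5000 bp. The ratio of median fold, 1.64, became 1.53 and 1.79 at limits of 700 and 1000 bp, 1.50 with the q limit, 1.33 against peaks of at least 400 bp and 1.13 at matched fragments. The ratio of median fragments, 1.69, became 1.55, 1.80, 1.52, 1.32 and 1.11 in the same order. The background ratio stayed between 0.985 and 1. Matching used classes of doubling fragments, so it removes part of the difference in fragments by construction. Pileups of 16 to 25 fragments do not resolve the order of the weakest wide peaks. No paired analysis was possible because each group has 1 library and the input has no values here.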
